A study of Mus musculus with 4 samples.

Results

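Acute phase proteins are plasma proteins that the liver secretes at altered rates during inflammation or tissue injury, mainly in response to interleukin-6 and interleukin-1 acting on hepatocytes through STAT3, NF-kappaB and C/EBP factors. The loss of liver mass in partial hepatectomy (PHx) also triggers cytokine release in the remaining liver, so these genes are a common readout of the hepatocyte response to surgery. The serum amyloid A proteins, haptoglobin, haemopexin, orosomucoid, lipocalin 2 and the pentraxins are positive acute phase proteins, meaning that their plasma level goes up, although Saa4 is known as a constitutive member of its family and Crp as a minor acute phase protein in the mouse.

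Chromatin accessibility was examined at 10 such genes, out of 21911 protein-coding genes of the GENCODE vM21 annotation. The 10 were chosen by name for their known role, with earlier results of these data known. They were Saa1, Saa2, Saa3 and Saa4, which encode serum amyloid A apolipoproteins, Hp, Hpx, Orm1, Lcn2, Crp and Apcs. In scATAC-Seq, Tn5 transposase cuts DNA where the chromatin of a nucleus is open, and barcoding in droplets assigns the fragments to single nuclei. The study made 4 libraries from hepatocytes of adult male C57BL/6J mice on a normal diet, aged 10 to 12 weeks in the labels, and the hepatocytes were released by collagenase perfusion in 2 steps. The PHx 0 h library came from undamaged liver without surgery, and the others from regenerating liver at 48, 72 and 96 h after PHx. There was 1 library per time point. The 0 and 48 h libraries each came from 1 hepatocyte preparation, and pooling of several mice at 72 and 96 h is neither stated nor denied in the text used here. No genotype or agent other than the surgery distinguished the groups. The question addressed was whether the chromatin of these genes differed from that of undamaged liver while the liver regrew. With no replicates, library and time point cannot be told apart, no test of a difference was possible, and every interval given is an exact 95% Poisson or binomial interval that covers counting error only.

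The level of a gene was the sum of counts in all peaks that touched the gene body or the 2000 bp upstream of its start, over barcodes with at least 1000 counts, divided by the total over all peaks of that library and multiplied by 1000000 (CPM). Such barcodes are called nuclei here. They numbered 3977, 3892, 4256 and 3224 at 0, 48, 72 and 96 h, with 136582768, 62000846, 24724883 and 14935507 counts, so precision fell with time. The authors called peaks in each library separately, and these covered 153.6, 179.0, 141.2 and 60.9 Mb, so covered lengths, levels per kb of covered peak or values adjusted for length are given beside many of the levels that follow. Counts per kb rose at most genes at 96 h, by a median of 1.26 on the log2 scale over all genes. Between 681 and 882 barcode sequences were listed in both libraries of a pair, 13.9% to 19.0% of the smaller list, and among nuclei 22.1%, 6.09%, 2.94% and 3.82% carried a barcode that another library also listed. Leaving those nuclei out moved the log2 ratios of the 10 genes to 0 h by at most 0.10 and changed none of their 2-fold calls in CPM. Hepatocyte identity was checked against 10 markers, which summed to 3624, 4268, 3331 and 4383 CPM with none at 0. The 8 neutrophil markers summed to 29.1, 33.6, 30.1 and 21.8 CPM, with S100a9 at 0 in every library. The 8 markers of Kupffer and other myeloid cells summed to 70.7, 136.7, 144.8 and 101.4 CPM, with Vsig4 and Cd5l at 0 in every library. The 10 endothelial markers summed to 268, 277, 327 and 211 CPM, the 8 of stellate and mesenchymal cells to 79.6, 119.1, 166.6 and 144.5 CPM, and the 6 of cholangiocytes to 46.6, 47.5, 70.1 and 68.3 CPM. The 8 lymphoid markers summed to 46.2 CPM at 48 h and to 1.25 CPM or less elsewhere, and at least 5 of them were at 0 in every library.

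The promoter stretches of 5 of the genes are printed here because a peak lay over the start of each in at least 3 libraries and most of the promoter was free of annotated exons. They come from the RefSeq promoter table for GRCm38.p6, which held 8 of the 10 genes and lacked Hp and Orm1, and each was ended before the most upstream annotated exon. Saa1 and Lcn2 also had a peak over the start in every library, but an exon took up most or all of that stretch. Saa2 was read from chr7:46751583-46751789 on the plus strand, Saa4 from chr7:46732604-46732853, Hpx from chr7:105600138-105600366 and Apcs from chr1:172895055-172895304 on the minus strand, and Crp from chr1:172697806-172698054 on the plus strand. Capitals mark matches on either strand to C/EBP (TTGCNNAA), NF-kappaB (GGG, any 5 bases, then CC), STAT (TTCNNNGAA) or AP-1 (TGANTCA), where N is any base.
Saa2: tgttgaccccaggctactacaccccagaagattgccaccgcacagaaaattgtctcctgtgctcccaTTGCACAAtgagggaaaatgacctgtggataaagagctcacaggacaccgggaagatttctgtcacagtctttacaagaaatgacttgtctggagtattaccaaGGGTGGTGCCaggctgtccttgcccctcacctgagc
Saa4: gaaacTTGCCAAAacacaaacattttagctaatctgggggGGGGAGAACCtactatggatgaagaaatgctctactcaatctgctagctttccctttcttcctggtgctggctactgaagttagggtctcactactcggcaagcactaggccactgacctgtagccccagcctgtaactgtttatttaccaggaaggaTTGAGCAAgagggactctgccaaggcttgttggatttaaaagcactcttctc
Hpx: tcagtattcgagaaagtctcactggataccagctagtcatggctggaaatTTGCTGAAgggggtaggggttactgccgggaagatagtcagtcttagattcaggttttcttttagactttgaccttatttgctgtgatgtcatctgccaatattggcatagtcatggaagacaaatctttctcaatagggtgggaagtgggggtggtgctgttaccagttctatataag
Crp: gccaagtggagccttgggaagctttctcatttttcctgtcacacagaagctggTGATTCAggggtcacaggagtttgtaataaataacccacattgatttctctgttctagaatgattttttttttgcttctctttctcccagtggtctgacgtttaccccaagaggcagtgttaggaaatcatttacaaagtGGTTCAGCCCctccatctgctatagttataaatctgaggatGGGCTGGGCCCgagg
Apcs: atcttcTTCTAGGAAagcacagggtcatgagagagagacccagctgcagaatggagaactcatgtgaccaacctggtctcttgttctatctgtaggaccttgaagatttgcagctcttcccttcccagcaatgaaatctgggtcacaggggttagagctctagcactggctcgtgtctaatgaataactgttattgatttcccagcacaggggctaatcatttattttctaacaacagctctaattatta

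In the 250 bp before the RefSeq start, the C/EBP letters occurred in 6 of the 8 promoters (Saa1, Saa2, Saa3, Saa4, Hpx and Lcn2), against 9.55% of 27025 promoters of the same length. The NF-kappaB letters occurred in 5 (Saa1, Saa2, Saa4, Lcn2 and Crp), but also in 45.4% of all promoters. The 10 capital letters nearest the end of the Saa2 line are an NF-kappaB match, and its C/EBP match TTGCACAA stood 183 to 176 bp before the start. Saa4 held 2 C/EBP matches, TTGCCAAA and TTGAGCAA. Hpx held a single match, the C/EBP letters TTGCTGAA at 200 to 193 bp before the start. The STAT letters occurred only in Apcs, as TTCTAGGAA, against 7.18% of all promoters, and the AP-1 letters only in Crp, as TGATTCA, against 6.87%. In Crp, 2 of its 3 NF-kappaB matches overlapped and form the run GGGCTGGGCCC. None of the 8 promoters held the HNF1 letters (GTTAAT and ATTAAC with 1 base between), which 0.0074% of all promoters held. These are matches of letters and say nothing of binding.

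All 10 genes were at or above 5 CPM on average over the libraries, the floor that 15482 protein-coding genes passed, with Saa3 just above it at 5.17. Saa2 averaged 8.91 CPM and passed mainly through 23.3 CPM at 48 h, with 2.46, 8.05 and 1.81 at 0, 72 and 96 h. Its call at 48 h is therefore not independent of the floor. Without a floor, 7.69% of genes were at least 2-fold higher at 48 h than at 0 h. The log2 ratio to 0 h (pseudocount 1 CPM) was above 0 for all 10 at 48 h, for 6 at 72 h and for 7 at 96 h, where 46.7%, 49.1% and 55.2% of all genes were. At 48 h Saa3 was level with 0 h, with a log2 ratio of 0.003 (1.002-fold, 0.84 to 1.19). The median log2 ratio of the 10 was 0.80, 0.15 and 0.61, beside -0.03, -0.01 and 0.08 for all genes. Most of these differences were below 2-fold. At 48 h, Saa2 and Hpx were at least 2-fold higher than at 0 h (5.37% of all genes) and none was at least 2-fold lower (1.86%). At 72 h the same 2 genes were higher (10.1%), and Saa1 and Saa4 were lower (5.89%). At 96 h, Hp and Hpx were higher (5.06%) and none was lower (8.74%). Between libraries after surgery, all 10 log2 ratios of 72 h to 48 h were below 0, where 54.5% of all genes were above 0, and 8 of the 10 ratios of 96 h to 72 h were above 0 (56.2%).

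**Figure D1:**
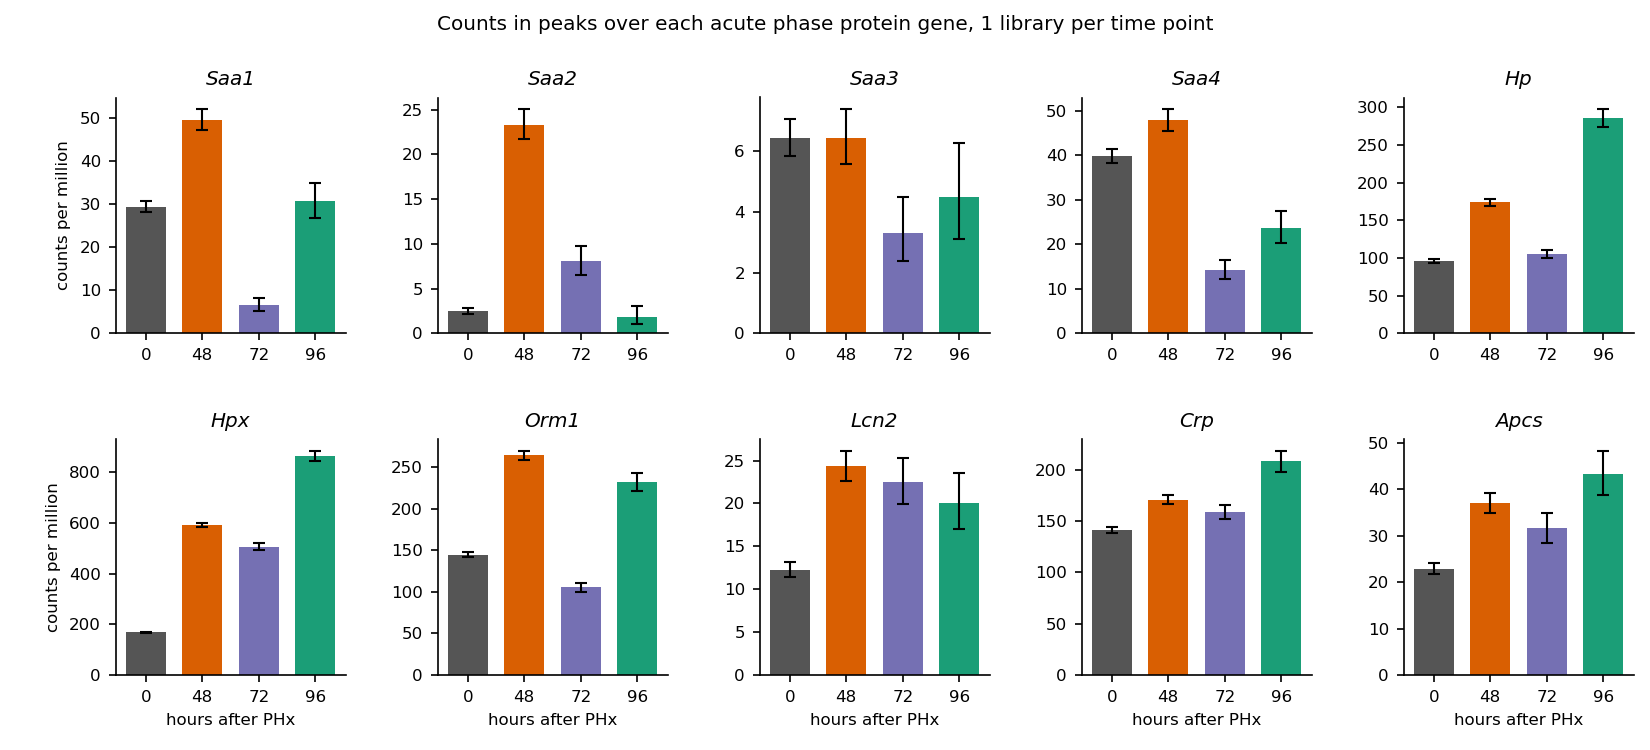
Level of each of the 10 genes in CPM (y axis, linear from 0, its own scale per gene) in each library, by hours after PHx (x axis). Bars are 1 library each and error bars are exact 95% Poisson intervals. Hpx had 169 CPM at 0 h and 594, 507 and 865 after PHx, and Saa1, Saa3, Saa4 and Orm1 had their lowest values at 72 h.

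The serum amyloid A genes lie together on chromosome 7, where Saa3, Saa4 and Saa1 are read from the minus strand and Saa2 from the plus strand, with Saa1 and Saa2 diverging from a shared intergenic stretch. Saa1 and Saa2 encode the major inducible apolipoproteins of high density lipoprotein in the acute phase. Saa2 had 2.46, 23.3, 8.05 and 1.81 CPM at 0, 48, 72 and 96 h, with intervals of 2.10 to 2.86, 21.7 to 25.1, 6.55 to 9.79 and 0.976 to 3.06. It was thus highest at 48 h and intermediate at 72 h, and the intervals of 0 and 96 h overlapped. The 48 h level was 9.49-fold that of 0 h (8.02 to 11.3), the highest fold of the 10 genes at any time when whole peaks were counted. When each peak was weighted by the part of it inside the window, Saa2 had a log2 ratio of 1.78 at 48 h, below that of Hpx at 96 h, 2.54. At 0 h the gene had peaks of 652 bp in all, while at 48 h a single peak of 6436 bp ran from before its start past its end. Per kb of covered peak, Saa2 had 3.77, 3.63, 3.83 and 6.57 CPM, so the 4 levels were closer to each other on that scale, where the log2 ratio at 48 h was -0.057. Over the whole stretch of the 48 h peak, which held 1 more peak at 0 h outside the window, the sums were 5.11, 23.3, 12.8 and 3.95 CPM. Its log2 ratio at 72 h was 1.39, and -0.36 after adjustment for covered length.

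Saa1 had 29.3, 49.5, 6.47 and 30.6 CPM at 0, 48, 72 and 96 h (intervals 28.1 to 30.6, 47.1 to 52.1, 5.13 to 8.05 and 26.8 to 34.8). In CPM only 72 h stood low, and 0 and 96 h overlapped, although through different peaks. The covered length of Saa1 was 4095, 9879, 2262 and 3758 bp, and per kb it had 7.16, 5.01, 2.86 and 8.14 CPM. The log2 ratio at 48 h was thus 0.74 in CPM but -0.51 per kb, and -0.16 after adjustment for covered length. It was 1.25 with each peak weighted by the part inside the window, 2.71 over the promoter alone and -0.35 over the 1 peak of nearly equal length in both libraries. Most of the 0 h level, 25.2 CPM, came from a peak of 3072 bp between Saa1 and Saa2, chr7:46744669-46747740, whose edge reached into the upstream window of Saa1. At 72 and 96 h the matching peaks, of 15.1 and 18.9 CPM, ended short of that window and were not counted. Most of the 96 h level, 23.2 CPM, came from a peak of 2947 bp that lay mostly past the end of Saa1. Of that peak 8.86% was inside the window. After adjustment for covered length the 96 h ratio was -0.84 in place of 0.06. Over its promoter (1000 bp to either side of the start) Saa1 had 3.73, 30.03, 6.47 and 3.82 CPM, so 72 h was there higher than 0 h, with a log2 ratio of 0.66 in place of -2.02. Weighted by the part of each peak inside the window, the 72 h ratio was -0.049. The 48 h promoter value came from a peak of 6490 bp, against 830 bp at 0 h.

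Saa4 had 39.9, 48.0, 14.1 and 23.7 CPM at 0, 48, 72 and 96 h, with intervals of 38.4 to 41.4, 45.6 to 50.5, 12.1 to 16.4 and 20.3 to 27.5. None of these intervals overlapped, and the order from high to low was 48, 0, 96 and 72 h. A single peak of 9812 or 9878 bp covered the gene at 0 and 48 h, and at 72 and 96 h shorter peaks of 3549 and 2599 bp in all took its place. Per kb of covered peak Saa4 had 4.06, 4.86, 3.98 and 9.12 CPM, so 96 h was highest on that scale. The log2 ratio of 96 h to 0 h was there 1.17 in place of -0.73, beside a median of 1.26 over all genes. With each peak weighted by the part inside the window, the Saa4 ratio at 96 h was 0.19. Saa3, which is known to be made in macrophages and other cells outside the liver as well as in hepatocytes, had 6.44, 6.45, 3.32 and 4.49 CPM. Its intervals overlapped between neighbours in the order of levels, and no library had a peak over its start. Its covered length was 1411, 1093, 490 and 418 bp, and per kb Saa3 had 4.56, 5.90, 6.77 and 10.7 CPM, lowest at 0 h. The log2 ratio of Saa3 at 72 h was -0.78 in CPM, 0.57 per kb and 0.50 after adjustment for covered length. The myeloid markers given above summed to their highest values at 48 and 72 h, and did so also within the hepatocyte-like nuclei classed below. Their part in the level of Saa3 was not tested.

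Over the whole cluster, from the end of Saa3 to 6000 bp past Saa2 and with the intergenic peaks included, the summed level was 116.7, 145.1, 82.8 and 117.7 CPM at 0, 48, 72 and 96 h (intervals 114.2 to 119.3, 140.9 to 149.4, 77.8 to 88.1 and 110.1 to 125.8). The covered length was 22220, 30474, 19805 and 12290 bp. In CPM the cluster was highest at 48 h and lowest at 72 h, and 0 and 96 h overlapped. Per kb of covered peak the values were 5.25, 4.76, 4.18 and 9.58 CPM, so 48 h was there below 0 h and 96 h was highest. Over all genes, the median log2 ratio per kb of 96 h to 0 h was 1.26. Saa1 and Saa2 are close copies. Their 250 bp promoters were identical in 94.8% of aligned positions, and of the 31-letter words in their windows 63.7% and 72.5% occurred once in the genome, with 27.5% of those of Saa1 found also at Saa2. How reads were shared out between the copies was not stated, so the split between Saa1 and Saa2 is uncertain while their sum is less so.

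**Figure D2:**
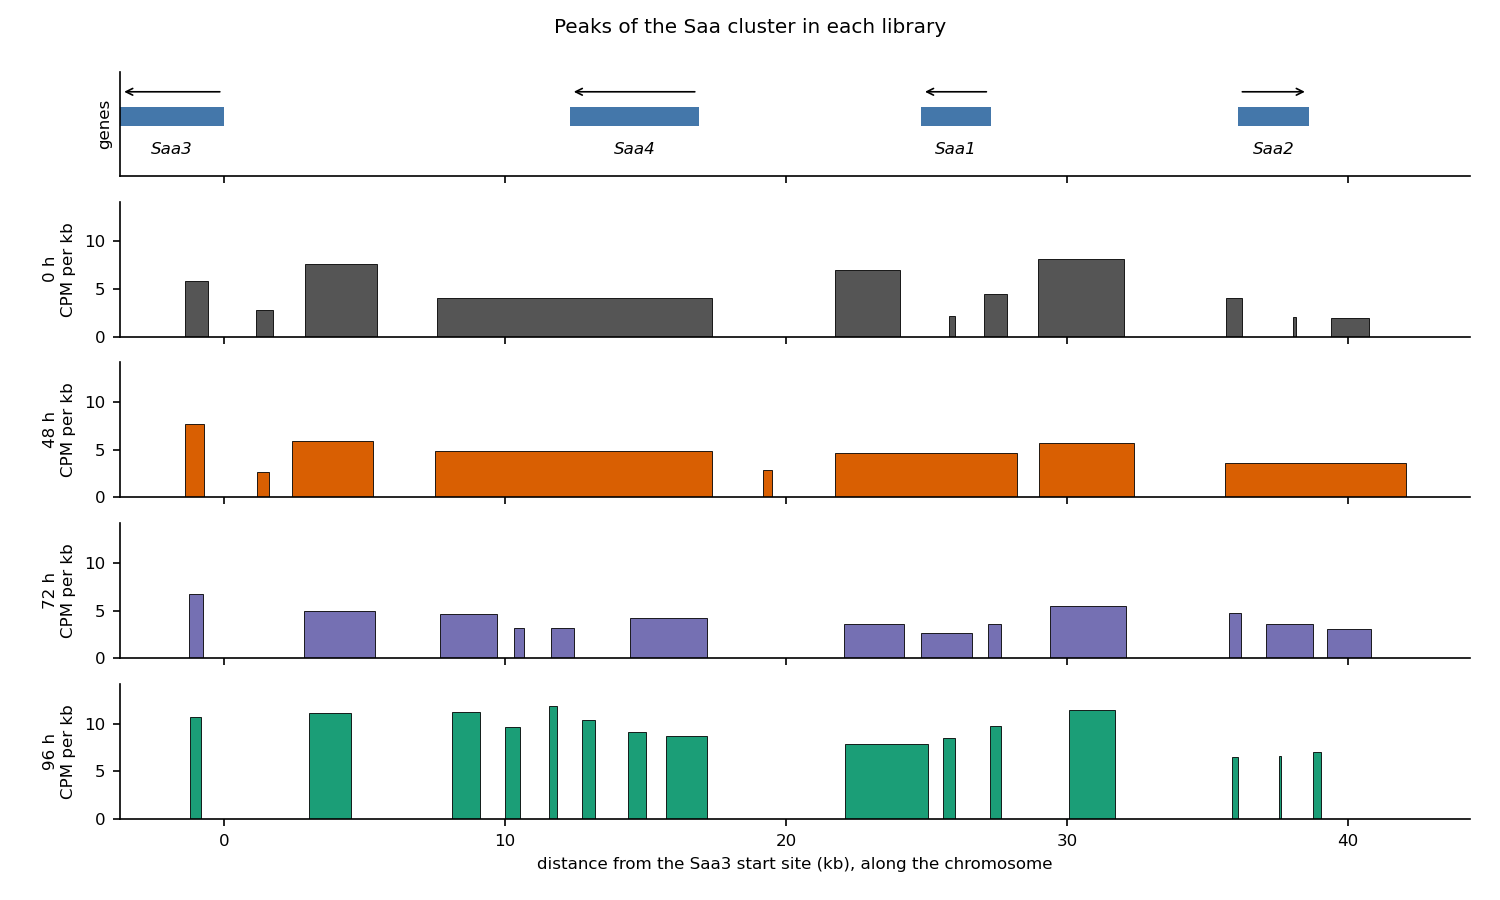
Peaks of the Saa cluster in each library, as CPM per kb of peak (y axis, linear) against the distance in kb from the start of Saa3 along the chromosome (x axis). Each box is 1 peak as called in that library, and blue bars are the genes with arrows along transcription. At 48 h single long peaks lay over Saa1 and over Saa2, and at 72 and 96 h the long Saa4 peak was split into shorter ones.

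Haemopexin, encoded by Hpx, binds free haem in plasma and carries it to the liver. Its chromatin showed the plainest difference of the 10. Hpx had 169, 594, 507 and 865 CPM at 0, 48, 72 and 96 h, with intervals of 166 to 172, 585 to 602, 495 to 520 and 844 to 887. All 3 libraries after PHx were above 0 h and no intervals overlapped. The ratios to 0 h were 3.52-fold (3.44 to 3.60), 3.01-fold (2.92 to 3.10) and 5.13-fold (4.98 to 5.29). Counted as present or absent per nucleus and peak (binarised), the log2 ratios were 1.003, 1.76 and 2.29 in place of 1.81, 1.58 and 2.35, so 48 h was then lower than 72 h and at the edge of 2-fold. The peak over the gene measured 14898, 18276, 14845 and 12946 bp, so the highest level stood over the shortest peak. Per kb of covered peak Hpx had 11.3, 32.5, 34.2 and 66.8 CPM. The pair of 72 h and 0 h was the closest comparison, as the peaks of 14845 and 14898 bp differed 3.01-fold in CPM. Of 11769 genes with peaks of nearly equal length, 1.67% were there at least 2-fold higher. At 96 h, peaks of nearly equal length had a median log2 ratio of 0.91 over all genes, so 2.35 for Hpx there stood 1.44 above that median. Hpx also ranked first among the 10 per kb in every library.

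**Figure D3:**
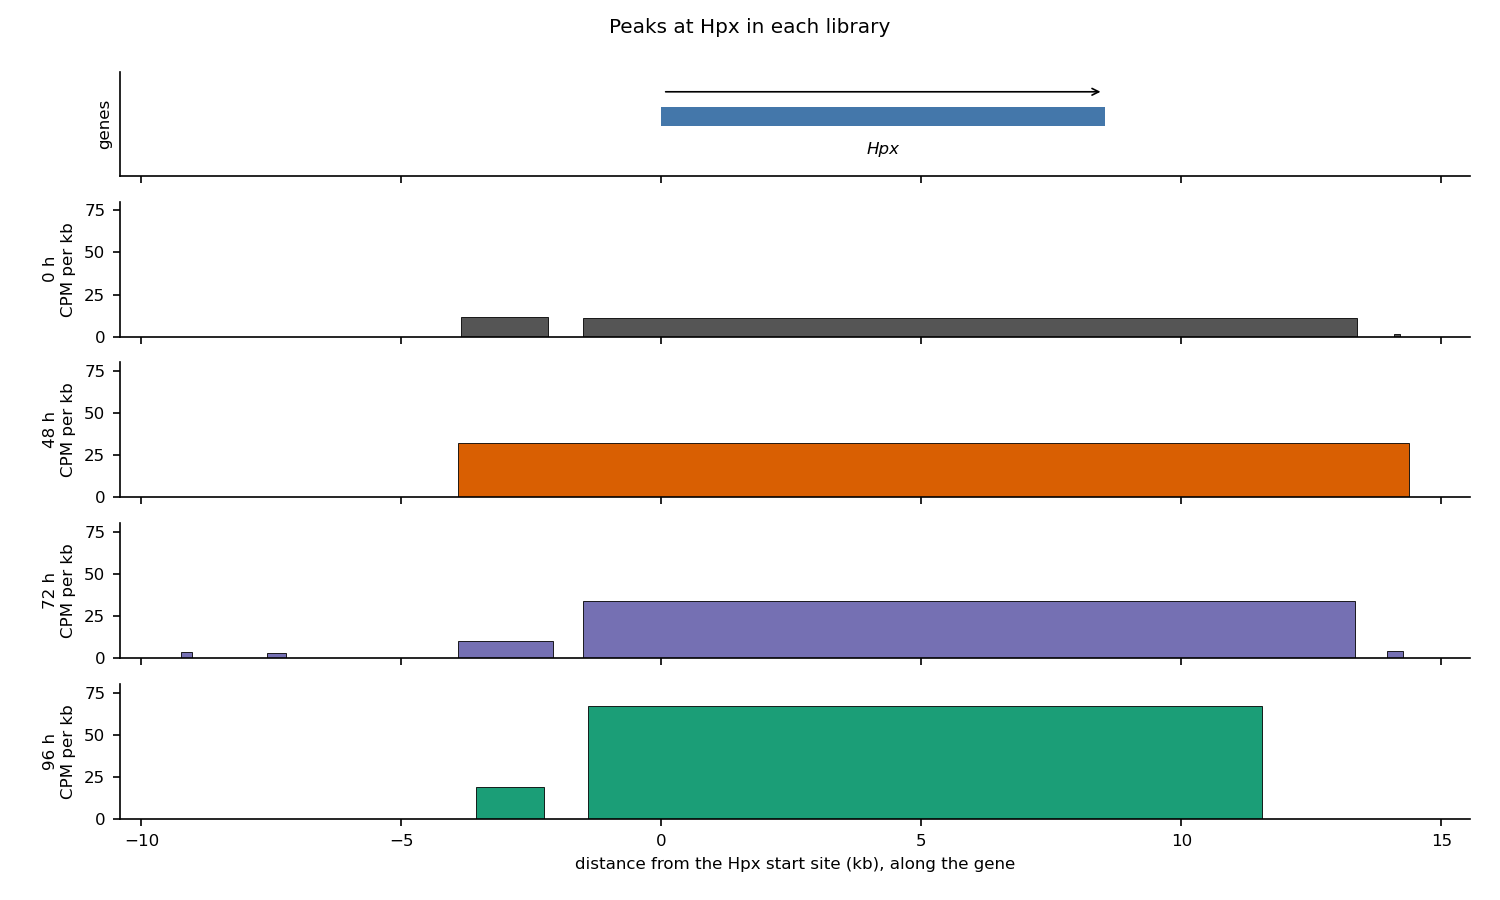
Peaks at Hpx in each library, as CPM per kb of peak (y axis, linear) against the distance in kb from the Hpx start along the gene (x axis). Each box is 1 peak, the blue bar is Hpx, and neighbouring genes are not drawn. The main peak stood at 11.3 CPM per kb at 0 h and at 32.5, 34.2 and 66.8 after PHx over a similar length.

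Haptoglobin, encoded by Hp, binds free haemoglobin. Hp had 95.8, 174, 104.9 and 286 CPM at 0, 48, 72 and 96 h (intervals 93.5 to 98.1, 169 to 179, 99.3 to 110.8 and 274 to 298). No intervals overlapped, with 96 h highest and 0 h lowest. The ratios to 0 h were 1.82-fold (1.75 to 1.88), 1.096-fold (1.03 to 1.16) and 2.99-fold (2.84 to 3.14) at 48, 72 and 96 h. At 48 h the peak was of nearly the same length as at 0 h, 11092 against 10429 bp, while the length at 96 h was 8198 bp. The peak also reached Txnl4b, the gene beyond its 3′ end, and counts of the pair cannot be told apart. At 96 h it was split at the promoter into a peak of 1153 bp over the start with 27.3 CPM and a longer one of 7045 bp over the rest with 259 CPM, and by promoter alone the log2 ratio at 96 h was -1.78 in place of 1.57.

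Lipocalin 2 (Lcn2) binds iron-carrying siderophores of bacteria and is also a granule protein of neutrophils. Its level was 12.3, 24.4, 22.5 and 20.1 CPM at 0, 48, 72 and 96 h, with intervals of 11.5 to 13.1, 22.7 to 26.2, 19.9 to 25.3 and 17.0 to 23.6. All 3 libraries after PHx were above 0 h, and their neighbours in the order overlapped. The ratios to 0 h were 1.99-fold (1.80 to 2.20), 1.83-fold (1.59 to 2.10) and 1.64-fold (1.37 to 1.95). The peak over its start grew from 2290 to 4869 bp at 48 h, and per kb it had 5.36, 5.01, 8.18 and 9.99 CPM. After adjustment for covered length the log2 values of Lcn2 were 0.19, 0.43 and -0.18 at 48, 72 and 96 h. Over peaks of nearly equal length it had 0.82 at 72 h, beside a median of 0.11 over all genes. At 96 h it had 0.67 there, below the median of 0.91. The summed neutrophil markers were 33.6 CPM at 48 h against 29.1 at 0 h, and their part in the level of Lcn2 was not tested.

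Orosomucoid 1 (Orm1), or alpha-1-acid glycoprotein, binds lipophilic drugs and dampens immune responses. Orm1 had 144.8, 265, 105.5 and 232 CPM at 0, 48, 72 and 96 h (intervals 142.0 to 147.7, 259 to 270, 99.8 to 111.4 and 221 to 243). The order from high to low was 48, 96, 0 and 72 h with no overlap. Its covered length was 19541, 28713, 15460 and 14721 bp, and per kb Orm1 had 7.41, 9.21, 6.82 and 15.8 CPM, so 96 h was highest on that scale. The log2 ratio of Orm1 per kb at 96 h was 1.09, beside a median of 1.26 over all genes. The same peak covered the paralog Orm3, and at 48 h, when it spanned 28713 bp, also Orm2 and Akna. Over the Orm locus as a whole, which adds the peaks at Orm2, the sums were 194.9, 281, 168.7 and 291 CPM, so 96 h was there level with 48 h within counting error.

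The pentraxins Crp and Apcs (serum amyloid P component, the main acute phase pentraxin of the mouse) bind phosphocholine and other ligands on damaged cells and microbes. Apcs had 22.9, 37.0, 31.6 and 43.4 CPM at 0, 48, 72 and 96 h, with intervals of 21.8 to 24.0, 34.9 to 39.2, 28.5 to 34.9 and 38.8 to 48.4. Each library after PHx was above 0 h, by 1.62-fold (1.498 to 1.75), 1.38-fold (1.23 to 1.54) and 1.90-fold (1.68 to 2.14). Its covered length was 2971, 4631, 4104 and 3065 bp. Per kb the levels of Apcs were 7.70, 7.99, 7.70 and 14.2 CPM. After adjustment for covered length its log2 values were 0.31, -0.14 and -0.14 at 48, 72 and 96 h. Over peaks of nearly equal length the 96 h ratio of Apcs was 0.89, beside a median of 0.91 over all genes. Crp had 140.9, 171.0, 158.6 and 208 CPM, and its ratios to 0 h were 1.21-fold (1.17 to 1.26), 1.13-fold (1.07 to 1.18) and 1.48-fold (1.40 to 1.56). The GENCODE gene Crp is 134977 bp long, far beyond the last RefSeq exon, and most of its counts, 112.0 CPM at 0 h, lay in 1 peak of 19522 bp over the start. Over the promoter alone Crp had 112.0, 138.1, 83.9 and 108.0 CPM, and both 72 and 96 h were then below 0 h, 96 h by less than counting error. The peak over the start measured 19522, 19595, 11074 and 8016 bp, as at 72 and 96 h the stretch was split into several peaks, and per kb of that peak Crp had 5.74, 7.05, 7.58 and 13.5 CPM.

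Across all protein-coding genes, the log2 ratio of counts followed that of covered length, with Pearson's r across genes of 0.87, 0.91 and 0.84 at 48, 72 and 96 h (n = 15453, 15446 and 15310 genes that share libraries and are not replicates). A line fitted to all genes was therefore subtracted. The median of the 10 genes was then 0.40, -0.08 and -0.08, with 9, 4 and 4 of them above 0 (48.2%, 50.2% and 52.3% of all genes). Hpx alone was still at least 2-fold higher at each time, with adjusted log2 values of 1.74, 1.44 and 1.52, where 0.317%, 0.505% and 0.398% of all genes were. Saa1 alone was at least 2-fold lower, at 72 h with -1.36 (0.544%), which rests on the intergenic peak described above. Hp had 0.96 at 48 h and 0.85 at 96 h, and Orm1 had 0.57 at 48 h. Saa2 had 0.18 at 48 h. The part of peak calling and depth in these values was not tested further.

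**Figure D4:**
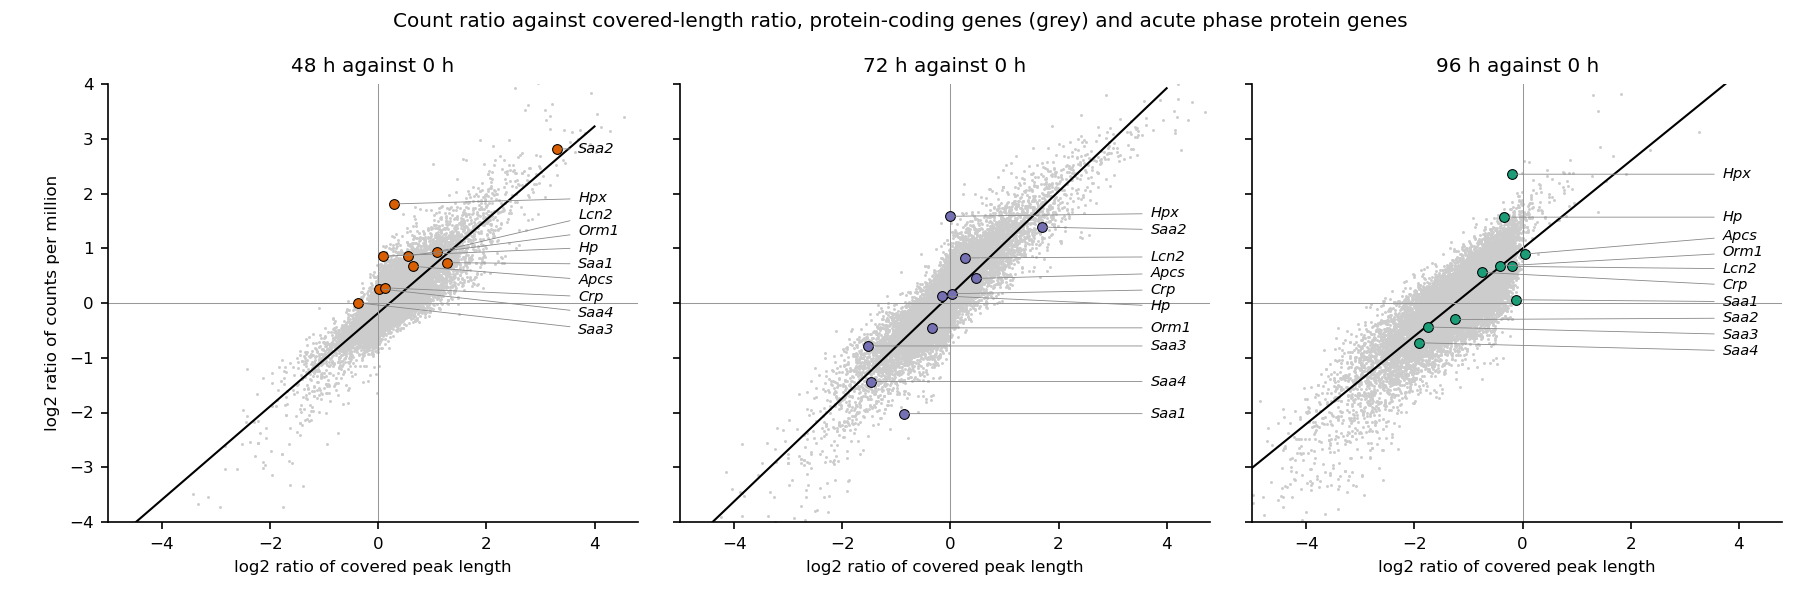
Log2 ratio of CPM to 0 h (y axis) against log2 ratio of covered peak length (x axis) at 48, 72 and 96 h, for protein-coding genes at the floor (grey; genes beyond the axes are not drawn) and the 10 acute phase protein genes (coloured, labelled). The black line is the fit to all genes. Hpx lies above the line in each panel, by 1.74, 1.44 and 1.52, and Saa2 lies near it at 48 h.

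Nuclei were classed by clustering on regions outside the 10 genes. Clusters with hepatocyte markers held 2803, 3627, 3930 and 3130 nuclei, called hepatocyte-like, and 294, 215, 289 and 81 were hepatocyte-low, while 880 nuclei at 0 h and 13 to 50 in the others were in a shallow cluster left unnamed. Each library had a hepatocyte-like cluster almost of its own, with 2796, 2789, 2798 and 3059 of its nuclei, and such a cluster may be the library and not a type, so only the whole class was compared. Of the 2 hepatocyte-low clusters, 1 with 599 nuclei was also shallow, with a median depth of 0.22 of that of its library, and all 10 endothelial markers were measured there, 8 of them at least 2-fold above hepatocyte-like nuclei. In the other, with 280 nuclei, the 4 measured of the 8 myeloid markers were all at least 2-fold above. Their part in the levels of hepatocyte-low nuclei, Saa3 included, was not tested. In hepatocyte-like nuclei alone, the 8 myeloid markers summed to 70.1, 131.8, 140.2 and 101.4 CPM at 0, 48, 72 and 96 h. The 8 lymphoid markers summed there to 45.7 CPM at 48 h. These sums were close to those over all nuclei. Hepatocyte-like nuclei held 92.6% to 100% of the counts of each gene in each library, beside 94.8%, 98.5%, 97.5% and 99.1% of all counts at 0, 48, 72 and 96 h, so these shares were about those of any count. Saa3 at 0 h had 17.1 CPM (9.08 to 29.2) in hepatocyte-low nuclei against 6.29 (5.69 to 6.93) in hepatocyte-like ones, but this rests on 26 counts, 8 of them in 1 nucleus. The shares of nuclei with a count at Saa3, thinned as described next, overlapped (1.87% and 1.11%), and at 48, 72 and 96 h the levels of both classes overlapped. Hpx had 168, 600, 519 and 873 CPM in hepatocyte-like nuclei and 31.5, 106.3, 55.3 and 17.4 CPM in hepatocyte-low nuclei, and the last of these rests on 2 counts. Restricting all ratios to hepatocyte-like nuclei moved them by at most 0.035.

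To compare shares of nuclei, each nucleus was thinned to 2000 counts, which left out 3, 185, 411 and 654 shallower hepatocyte-like nuclei. At least 1 count over Hpx was found in 27.4%, 61.7%, 50.01% and 65.1% of the remaining hepatocyte-like nuclei at 0, 48, 72 and 96 h, with intervals of 25.7 to 29.0, 60.1 to 63.3, 48.3 to 51.7 and 63.2 to 67.0. At 48 and 96 h most of these nuclei thus carried a count at Hpx even at this low depth. In hepatocyte-low nuclei the share was 2.80%, 6.42% and 9.09% at 0, 48 and 72 h, and at 96 h 0 of 8 nuclei had a count, which allows a share of up to 36.9%. Without thinning, the shares in hepatocyte-like nuclei were 83.6%, 85.8%, 64.9% and 75.4%, at median depths that fell from 37686 to 3798 counts before shallow nuclei were left out. For Hp the thinned shares were 16.4%, 24.5%, 15.3% and 32.3%, and for Orm1 23.7%, 34.5%, 15.004% and 28.7%. For Saa2 the shares were 0.179%, 4.01%, 1.19% and 0.242% in the same order of libraries, and for Saa1 5.79%, 7.50%, 1.08% and 4.44%. Even at 48 h, a count at Saa2 was seen in few nuclei, and at this depth a nucleus without a count is not shown to be closed there. The counts of Hpx were spread over many nuclei, as the 1% of nuclei with most of them held 6.29% to 6.58% of all its counts in hepatocyte-like nuclei.

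**Figure D5:**
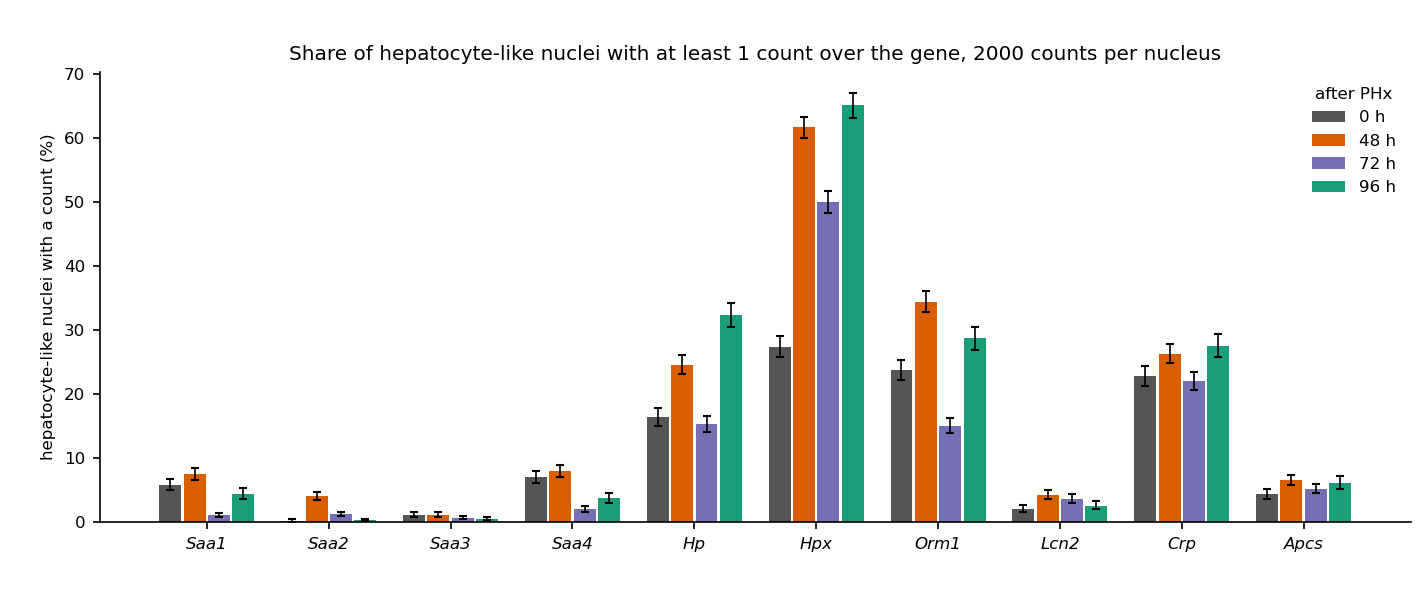
Share of hepatocyte-like nuclei (y axis, percent, linear from 0) with at least 1 count in peaks over each gene (x axis) at 0, 48, 72 and 96 h, each nucleus thinned to 2000 counts. Error bars are exact 95% binomial intervals. Hpx goes from 27.4% at 0 h to 50.01% or more after PHx, and the serum amyloid A genes stay below 10% in every library.

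Other genes of the acute phase were taken as lists chosen for their known roles, and their counts are read against the shares of all genes given above. Of 18 other positive acute phase genes, 8 were at least 2-fold higher at 48 h (5.37% of all genes) and none lower (1.86%), with a median log2 ratio of 0.88 beside -0.03 for all genes. They were Itih3, Itih4, the copper carrier Cp, complement C3, Lrg1, the metallothioneins Mt1 and Mt2, and Steap4. After adjustment for covered length, 4 of them (Itih3, Cp, C3 and Mt2) were still at least 2-fold higher (0.317%) and none of the 18 was lower (0.226%). Mt2 went from 33.6 to 212 CPM and Itih4 from 116.8 to 370.8 CPM, with covered lengths of 4557 and 14058 bp and of 23002 and 49990 bp. The peak over Mt1 and Mt2 was the same at 48 h, and Itih3 and Itih4 had nearly the same level and covered length there, 370.3 CPM over 49812 bp and 370.8 CPM over 49990 bp, so neither pair gives separate values. Orm2 and Orm3, also in the list, had the 48 h level of Orm1, 265 CPM. At 72 h none of the 18 was higher (10.1%) and 4 were lower (5.89%), the fibrinogen genes Fga, Fgb and Fgg and Orm2. The 3 fibrinogen genes had the same level and covered length at 0 h, 673 CPM and 54278 bp, and are therefore not separate values. Fga went to 111.1 CPM as its covered length went to 12637 bp. With adjustment for length none of these 4 was 2-fold lower, with values of -0.75 for Fga, -0.29 for Fgb, -0.27 for Fgg and -0.47 for Orm2. At 96 h Cp, C3 and Mt2 were higher (5.06%) and Fga and Orm2 lower (8.74%), with Cp at 667 CPM against 230 at 0 h, and none of the 5 was 2-fold different after adjustment for length.

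Of 10 negative acute phase genes, whose plasma proteins go down in inflammation, none was 2-fold different at 48 h, 5 were lower at 72 h (Rbp4, Apoa1, Serpina6, Ahsg and F12, beside 5.89% of all genes) and 2 at 96 h (Rbp4 and Apoa1, beside 8.74%). After adjustment for covered length only Apoa1 was 2-fold lower at 72 h, with -1.02 (0.544%), while Rbp4 was just short of it with -0.95 against -1.07 before, Ahsg had -0.58, Serpina6 -0.49 and F12 -0.02. Both genes called at 96 h remained so, Rbp4 with -1.27 and Apoa1 with -1.32 (1.25%). Rbp4, the plasma carrier of retinol, had 242, 138.7, 115.3 and 85.6 CPM over 16496, 15272, 13546 and 5753 bp. Apoa1, the main protein of high density lipoprotein, had 283, 190.0, 128.6 and 136.9 CPM over 16385, 17794, 13518 and 8812 bp. Of 13 genes of cytokine receptors and signalling, Osmr, the oncostatin M receptor, was higher in every comparison, with 10.1, 21.8, 30.7 and 28.9 CPM over 2129, 3274, 3361 and 2092 bp. Il1r1 was higher at 48 h only, with 134.8 and 319 CPM and a covered length of 30118 and 78383 bp. Neither was 2-fold higher after adjustment for length, with 0.69, 0.74 and 0.45 for Osmr at 48, 72 and 96 h and 0.24 for Il1r1 at 48 h. Of 11 transcription factors of the acute phase, none was 2-fold different at 48 h. At 72 h Nfkb1 was higher, with 165.9 against 79.0 CPM, while its covered length went from 12159 to 27946 bp and its adjusted value was -0.22. Cebpa was lower at 72 h, with 267 and 107.6 CPM over 15516 and 9055 bp and an adjusted value of -0.72, and it had -1.06 at 96 h. Rela was lower at 96 h, with 73.6 and 33.8 CPM over 11801 and 2235 bp and an adjusted value of -0.17. Stat3 had 139.9, 173.8, 116.3 and 146.0 CPM. Of 5 genes next to the Saa cluster at the floor, none was different at 48 or 96 h. Gtf2h1 and Ldha were lower at 72 h, with adjusted values of -0.56 and -0.42.

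The genes whose 3 log2 ratios lay nearest the median of the 10, by Euclidean distance over 3 comparisons that share the 0 h library, were Tex9, Btn1a1 and Ddx47 at 0.10, 0.14 and 0.14.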

How the data were processed

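The deposited counts were whole numbers of transposase cut sites per peak and barcode, which the authors made with Cell Ranger ATAC (version 1.1.0 in the file headers) on mm10, with peaks called in each library separately. The file of 1 sample and its group were taken from the labels. Between 87.3% and 88.6% of values were even, since both ends of a fragment count, so Poisson intervals were computed on counts divided by 2. Of 119839 to 164113 peaks at 0, 48 and 72 h and 77580 at 96 h, none passed a chromosome end of GRCm38, and 59.4%, 62.8%, 62.1% and 54.2% of protein-coding gene starts lay in a peak, against 11.0%, 12.7%, 9.55% and 4.43% when shifted by 100 kb.

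The 10 genes and all other lists were chosen with earlier results of these data known. Counts of nuclei (at least 1000 counts) were summed per gene, scaled to CPM and compared as log2(CPM + 1) over genes with a mean of at least 5 CPM. A gene was called different at a ratio of at least 2. No test across libraries was run, as each group held 1 library. Nuclei were clustered with scanpy 1.11.5 on binarised shared regions (30 components, 30 neighbours, resolution 0.5). A cluster was hepatocyte-like when its mean level of 10 markers was above -1 (log2, relative to all clusters), unless its median depth was below 1/3 of its library, when it stayed unnamed. Clusters at or below that level were called hepatocyte-low at any depth. No doublet caller was run. The computation was tested on simulated counts. Named genes were all 10 members, up to 3 per other list and comparison with the largest absolute log2 ratio at the floor, and the 3 nearest genes outside the lists. Stat3 and the other genes called in a list were named after their values were seen. Alternatives were another count minimum, pseudocount, floor or scaling, other sets of nuclei, binarised counts, clipped peaks, the promoter alone, shared regions, counts per kb, and an adjustment for covered length. Python 3.11.15, numpy 2.4.6 and scipy 1.17.1 were used.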

Additional observations from a re-analysis of the deposited data

How the results depend on the processing

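No paired analysis was possible because each time point held 1 library, and for the same reason no library could be left out. Beside each count of the 10 genes, the share of all genes is given in brackets. The number at least 2-fold higher at 48 h was 1 in place of 2 per kb of covered peak (0.142%) and with the length adjustment (0.317%), but 3 with clipped peaks (4.52%) and with the promoter alone (7.39%), where Saa1 was added. At 72 h it was 1 in place of 2 per kb (1.76%), with the length adjustment (0.505%), binarised (6.47%) and with a pseudocount of 5 (6.65%). At 96 h it was 4 binarised (3.86%), 6 per kb (72.0%), and 1 with the length adjustment (0.398%) and with the promoter alone (5.81%), in place of 2. The number at least 2-fold lower at 72 h was 0 with clipped peaks (2.93%), 1 per kb (0.324%), with the length adjustment (0.544%) and with the promoter alone (7.07%), and 3 binarised (4.24%), in place of 2. At 96 h it was 2 with the promoter alone (10%) in place of 0. Peaks of nearly equal length could test only 5 of the 10 genes at 48 h and 4 at 72 h. The counts there were 0 higher at 48 h (0.0455%), and 1 higher (1.67%) and 0 lower (0.161%) at 72 h. They say nothing of Saa2 and Hpx at 48 h or of Saa1, Saa2 and Saa4 at 72 h, which were not among the genes tested. At 96 h, 4 genes could be tested and 2 were higher (41.9%), Hpx and Crp, with Crp on 1 peak of 259 bp. Hp, called at 96 h, was not among those 4. Counts per kb moved the median of all genes at 96 h to 1.26, where 72.0% of genes were at least 2-fold higher. Among log2 ratios at or past 2-fold, the sign turned for Saa1 at 72 h with the promoter alone (0.66), Saa2 at 48 h per kb (-0.057), Saa2 at 72 h with the length adjustment (-0.36) and Hp at 96 h with the promoter alone (-1.78). Below 2-fold, 14 log2 ratios turned sign under at least 1 setting, in 25 cases. Of these cases, 7 were per kb, 7 with the length adjustment, 3 binarised, and 2 each with the promoter alone, clipped peaks and nearly equal peaks, and 1 each with a minimum of 3000 counts and with median scaling. They included Saa1 at 48 h per kb (-0.51), Saa4 at 96 h per kb (1.17), Orm1 at 72 h binarised (0.45) and Crp at 72 h with the promoter alone (-0.41). The causes of these differences were not tested beyond the lengths given. A minimum of 3000 counts, the deepest 5% left out, hepatocyte-like nuclei, no floor and shared regions moved the log2 ratios by at most 0.38 and changed no count of calls beyond 1.5 times. Peaks of nearly equal length and nuclei without shared barcodes were chosen as alternatives after the data had been seen. At 96 h, 27 counts over Saa2 and 67 over Saa3 limited precision.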

Other observations

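Nuclei whose barcode another library also listed were among the deepest at 0 and 48 h. Their median was 72341 counts at 0 h (877 nuclei) and 45764 at 48 h (237 nuclei), beside 26005 and 11629 for all nuclei of those libraries. At 72 and 96 h it was 4281 (125 nuclei) and 5616 (123 nuclei), beside 4841 and 3681.5. Among the intergenic peaks of the Saa cluster, the peak between Saa3 and Saa4 that began 2879 bp upstream of Saa3 at 0 h had 19.8, 16.9, 12.7 and 16.7 CPM at 0, 48, 72 and 96 h, above the level over Saa3 itself in every library.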
